A study of Mus musculus with 6 samples.

Results

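The 10 genes described here encode receptors of the CD28 family and inhibitory receptors that act beside them on T cells. They are the costimulatory receptors Cd28 and Icos, the inhibitory receptors Ctla4, Pdcd1, Btla, Lag3, Havcr2, Tigit and Cd160, and Cd200, a membrane glycoprotein that serves as the ligand of an inhibitory receptor. The members were taken by gene symbol from the authors' table. Each symbol matched 1 of the 34745 genes listed, and all 10 passed the filter on low counts that left 12967 genes to test.

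RNA-seq was performed on 6 libraries of mouse CD4 T cells, 3 from PBS control cultures and 3 from cultures exposed to PM2.5, airborne particles of under 2.5 µm, at 100 µg/ml. All cultures were started from naive CD4 T cells of the spleens of 6-week-old female C57BL/6 mice. They were stimulated with plate-bound antibodies to CD3 and CD28 for 4 days in a Th17 mixture, made of IL-2 (5 ng/ml), TGF-beta (2 ng/ml), IL-23 (10 ng/ml), IL-6 (20 ng/ml) and antibodies that block IL-4 and IFN-gamma (5 µg/ml each). PM2.5 or PBS was given 6 h after stimulation began. The same antibody to CD28 was thus present in both groups. The labels do not state whether the 3 replicates of a group came from separate mice or wells, and the p-values below therefore cover only the spread between libraries, which may be technical.

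Full activation of a T cell needs antigen recognition together with a second signal, given mainly by CD28 when it binds CD80 or CD86 on another cell. CTLA-4 binds the same ligands more tightly and limits that signal, ICOS supports helper functions through its own ligand, and PD-1, BTLA, LAG-3, TIM-3 (encoded by Havcr2), TIGIT and CD160 dampen activated cells through other ligands. Several of these receptors are themselves induced by activation, so their transcripts mark both stimulation and restraint.

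Library totals ran from 19511561 to 22353131 counts in the PBS control and from 25397965 to 27215853 counts in the PM2.5 group, so the groups also differed in depth. Levels are given as CPM, which are counts per 1000000 of the library total after scaling that total with edgeR's TMM factors. Counting error alone allows a gene with 0 counts to stand at up to 3 counts. That is 0.110 to 0.154 CPM depending on the library, by plain library totals without these factors. All 8 listed markers of CD4 T cells were present, with a summed level of 3204 to 3272 CPM in the PBS control and 2420 to 2444 CPM in the PM2.5 group. The 6 Th17 markers summed to 3479 to 3560 and to 2621 to 3106 CPM. Il17f made up 2323 ± 58.4 and 1813 ± 256 CPM of the Th17 sum (SD, n = 3). By the test described below, 6 CD4 T cell markers were lower and 2 higher. Of the Th17 markers, 5 were lower and 1 was not called. Among all genes tested, 35.3% were lower and 35.2% higher. In bulk RNA, a fall in the number of cells of a type and a fall in transcript per cell cannot be told apart.

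Of the 10 genes, 8 rose and 2 fell in the PM2.5 group. Cd200, Btla and Havcr2 rose the most, by 17.7-fold, 7.34-fold and 5.81-fold. Ctla4 rose 3.22-fold and Icos 2.13-fold, while Tigit, Cd28 and Cd160 rose by less than a doubling (1.81-fold, 1.51-fold and 1.37-fold). Pdcd1, which encodes PD-1, fell 1.68-fold and Lag3 fell 1.40-fold. These calls are from edgeR's quasi-likelihood F test, adjusted by Benjamini-Hochberg across all genes with a threshold of 0.05.

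Much of the transcriptome moved as well. Across all genes tested, 70.6% passed in either direction, 35.2% higher and 35.3% lower (4567 and 4582 genes). Scaled by library totals in place of TMM factors, 4053 genes were higher and 5081 lower. A change of at least 2-fold with a passing p was found for 5 of the 10 members, all higher, where 6.51% of all genes were higher and 12.4% lower by that measure (18.9% in either direction). The members' median log2 fold change was 0.97, beside -0.01 over all genes, and the median size of change was 0.97 against 0.43. The members were chosen with earlier results of these data known, so these comparisons describe the set and do not test it. For each of the 10 members the PM2.5 libraries lay wholly above or wholly below the controls, as for 74.9% of all genes. The passing of all 10 members and the separation of their groups stand against these high backgrounds.

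**Figure D1:**
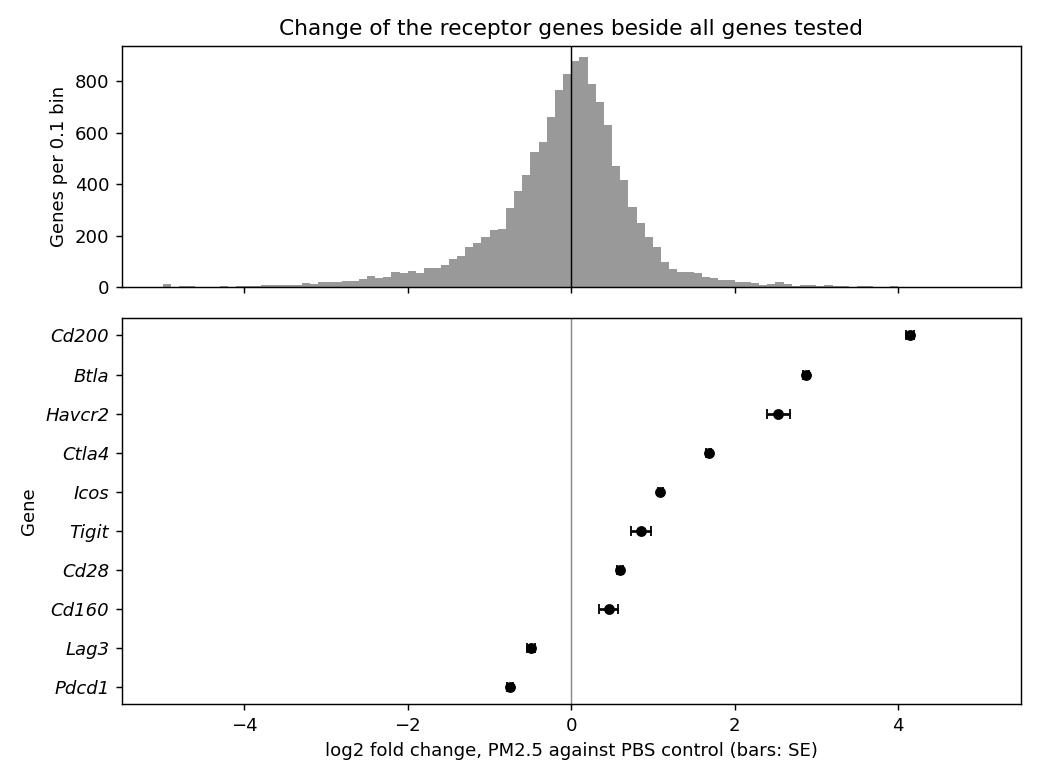
Distribution of log2 fold changes, PM2.5 against PBS control, of all genes tested (upper panel, genes per bin; values beyond 5 in either direction are drawn in the end bins) and the log2 fold change of each of the 10 receptor genes with its SE (lower panel). Cd200 at 4.15 lies in the far right tail, while Pdcd1 at -0.75 and Lag3 at -0.49 lie within the bulk.

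The costimulatory receptors were both higher. Cd28 (ENSMUSG00000026012) lies on mm10 chromosome 1, 60716800 to 60773359. It stood at 447, 474 and 443 CPM in the PBS control and at 703, 675 and 682 CPM in the PM2.5 libraries. The lowest PM2.5 library thus lay well above the highest control library. The log2 fold change was 0.59 (SE 0.03, adjusted p = 7.41e-08 in edgeR's test). Icos, the inducible costimulator needed for follicular helper cells and germinal centres (ENSMUSG00000026009, chromosome 1, 60977927 to 61000320), was measured at 203, 214 and 200 CPM in the control and at 443, 444 and 428 CPM after PM2.5. Every exposed library held more than any control library, and the log2 fold change was 1.09 (SE 0.03, adjusted p = 1.01e-09). Among all genes, 15.9% rose more than Cd28 and 5.48% rose more than Icos.

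Ctla4, the inhibitory counterpart of Cd28 (ENSMUSG00000026011, chromosome 1, 60887000 to 60915832), had the highest level per length of the 10 genes in both groups. In CPM it stood at 390, 414 and 392 CPM in the control and 1287, 1293 and 1268 CPM after PM2.5, with no overlap. Its log2 fold change was 1.69 (SE 0.03, adjusted p = 2.18e-11), and the SD over replicates was 3.30% of the mean in the control and 1.05% after PM2.5, far below the difference between groups. Of the 12967 genes, 324 rose more. Ctla4, Icos and Tigit are also typical of regulatory T cells, and Foxp3, the defining factor of those cells, named after its values were seen, fell from 51.2 ± 0.86 to 26.2 ± 1.77 CPM (SD, n = 3) in the same libraries. Ikzf2, also used as a marker of those cells, went the other way, from 5.70 ± 2.54 to 12.6 ± 1.13 CPM. Its call depended on the fit, as given below. The part of a change in cell types in these values was not tested.

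Cd28, Ctla4 and Icos lie in this order on chromosome 1, with starts 170 kb (Cd28 to Ctla4) and 90.9 kb (Ctla4 to Icos) apart. All 3 rose, Ctla4 in the middle the most. Of the other genes within 250 kb of the start of one of them, those reaching 1 CPM in either group were Raph1, Eif4a-ps4, Gm37198 and Gm37039. Raph1, which links Ras signals to the actin skeleton, rose from 58.2 ± 3.62 to 117 ± 2.80 CPM (log2 fold change 1.01), Gm37198 rose by 1.23 and the pseudogene Eif4a-ps4 rose by 0.34. Gm37039, an annotated locus inside the span of Icos, fell from 1.58 ± 0.25 to 0.818 ± 0.049 CPM. Eif4a-ps4 is a pseudogene at 905 CPM in the control, so its counts may include reads of its parent gene.

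**Figure D2:**
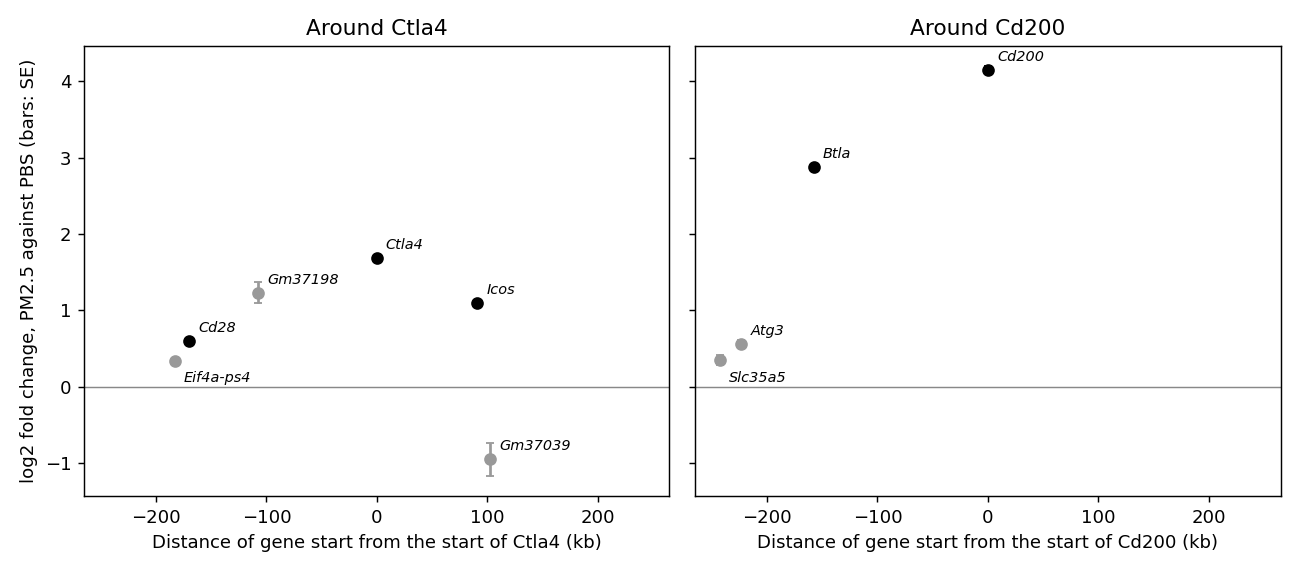
log2 fold change with SE (vertical axis) of the tested genes by the distance of their starts from the start of Ctla4 (left) and of Cd200 (right), in kb; black points are members of the receptor set and grey points other genes. The cluster of Cd28, Ctla4 and Icos lies between 0.59 and 1.69, and Cd200 and Btla lie above their tested neighbours Atg3 and Slc35a5.

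Cd200 had the largest change of the set. The gene (ENSMUSG00000022661, mm10 chromosome 16, 45382135 to 45409053) encodes a glycoprotein whose receptor, CD200R, inhibits mainly myeloid cells. It was found at 28.4, 29.9 and 26.5 CPM in the control and at 511, 497 and 495 CPM in the PM2.5 libraries. The 6 values fall into separate ranges with nothing between. The log2 fold change was 4.15 (SE 0.05, adjusted p = 3.15e-12), and 39 of the 12967 genes rose more. The receptor gene Cd200r1, named after its values were seen, had 4.68 ± 0.36 and 5.31 ± 0.55 CPM and did not pass (log2 fold change 0.18, adjusted p = 0.211).

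Btla, an inhibitory receptor of B and T cells that binds the TNF receptor family member HVEM (ENSMUSG00000052013, chromosome 16, 45224315 to 45252895), had 48.8, 51.6 and 49.7 CPM in the control and 366, 362 and 374 CPM after PM2.5. Again the groups were far apart and the replicates close, with SDs of 2.85% and 1.61% of the means. Its log2 fold change was 2.88 (SE 0.03, adjusted p = 3.16e-12), exceeded by 97 genes. Cd160, which binds the same ligand and is best known from NK and CD8 T cells (ENSMUSG00000038304, chromosome 3, 96798763 to 96829351), was low, with 4.82, 5.49 and 5.75 CPM in the control and 8.12, 7.09 and 6.85 CPM after PM2.5. The groups did not overlap, though the gap between them was small, and the log2 fold change was 0.46 (SE 0.11, adjusted p = 0.00429), or 0.26 with limma on log2(FPKM + 1). Of the 14 tested neighbours of Cd160, 5 rose and 2 fell, beside 35.2% and 35.3% of all genes. The neighbour with the largest change, Gja5, a gap junction gene 106 kb away, fell from 99.9 ± 10.0 to 7.90 ± 3.28 CPM. An exon of Cd160 overlaps Pdzk1 on the opposite strand by 68 bases, and without a stated strand setting reads there cannot be assigned. The HVEM gene Tnfrsf14 itself fell from 27.4 ± 2.39 to 11.4 ± 0.61 CPM (log2 fold change -1.27, adjusted p = 2.21e-07).

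Btla and Cd200 are near each other, with starts 158 kb apart on chromosome 16, and Tigit lies 1575 kb from Btla on the same chromosome. The other expressed genes within 250 kb of either start rose less. Atg3, an enzyme of autophagosome formation, rose from 47.1 ± 1.14 to 69.7 ± 2.43 CPM (log2 fold change 0.57), and Slc35a5, a sugar nucleotide transporter family member, from 10.7 ± 0.04 to 13.7 ± 0.22 CPM (0.35). The remaining neighbours in the table did not reach 1 CPM in either group.

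B cells express Cd200 and Btla strongly, so markers of B cells were read beside these rises. The 7 B cell markers summed to 1.16 to 1.96 CPM in the control and to 0.443 to 0.564 CPM after PM2.5. Ms4a1 had no counts in any library. The part of B cells in the levels of Cd200 and Btla was not tested further. NK cell markers summed to 49.8 to 62.6 CPM in the control and 14.9 to 16.1 CPM after PM2.5, with Ncr1 at 0 counts throughout, and the 2 CD8 T cell markers to 10.0 to 11.2 and 9.06 to 10.0 CPM. The CD8 markers moved in opposite directions: Cd8a fell from 6.28 ± 0.48 to 3.46 ± 0.77 CPM, and Cd8b1 rose from 4.16 ± 0.27 to 6.09 ± 0.69 CPM. The part of NK and CD8 T cells in the level of Cd160 was not tested.

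The sequences just before the starts of 4 members are shown, those of the 3 largest rises and of the larger fall, so that motifs can be read beside the values. They are the 250 bases upstream of the RefSeq start in GRCm38.p6, each read 5′ to 3′ on the strand of the gene. The windows are chr16:45409054-45409303 on the minus strand for Cd200, chr16:45224087-45224336 on the plus strand for Btla, chr11:46454681-46454930 on the plus strand for Havcr2 and chr1:94052554-94052803 on the minus strand for Pdcd1. Capitals mark matches, on either strand, to TGANTCA (an AP-1 site), TGATGNAA (a C/EBP-ATF composite), GGAAA (the core of an NFAT site), TGACG (the core of a cyclic AMP response element) and GCGTG (the core of a xenobiotic response element). No match shown overlaps another.
Cd200: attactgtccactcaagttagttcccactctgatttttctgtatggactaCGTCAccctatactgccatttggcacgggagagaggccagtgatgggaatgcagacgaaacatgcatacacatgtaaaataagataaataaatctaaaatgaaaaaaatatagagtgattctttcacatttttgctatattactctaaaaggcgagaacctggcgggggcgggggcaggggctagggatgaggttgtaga
Btla: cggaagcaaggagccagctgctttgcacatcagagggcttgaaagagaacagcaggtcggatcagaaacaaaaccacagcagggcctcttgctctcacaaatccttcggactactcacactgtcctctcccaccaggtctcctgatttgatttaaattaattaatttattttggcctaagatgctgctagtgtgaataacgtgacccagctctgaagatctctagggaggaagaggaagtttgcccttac
Havcr2: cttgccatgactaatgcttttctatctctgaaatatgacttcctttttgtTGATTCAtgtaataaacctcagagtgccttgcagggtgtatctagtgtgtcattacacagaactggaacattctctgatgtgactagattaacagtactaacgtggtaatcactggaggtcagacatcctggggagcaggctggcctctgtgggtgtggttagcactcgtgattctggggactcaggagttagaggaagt
Pdcd1: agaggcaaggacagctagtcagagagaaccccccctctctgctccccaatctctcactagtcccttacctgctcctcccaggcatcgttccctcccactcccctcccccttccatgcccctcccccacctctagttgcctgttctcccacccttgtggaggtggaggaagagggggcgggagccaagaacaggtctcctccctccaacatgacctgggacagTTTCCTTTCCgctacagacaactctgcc
The Cd200 window holds 1 cyclic AMP core, on the reverse strand 200 bases before the start, the Havcr2 window 1 AP-1 site, which reads as a match on both strands, 200 bases before the start, and the Pdcd1 window 2 reverse NFAT cores 28 and 23 bases before the start. No letters of these 5 motifs are in the Btla window. Windows of this length were found for 7 of the 10 genes. An AP-1 site was in 1 of the 7 against 6.75% of all 32851 windows, an NFAT core in 4 against 55.6%, a cyclic AMP core in 2 against 17.8%, and neither the composite (3.45% of all) nor the xenobiotic core (28.2%) in any. Members were counted by gene and the background by window. The Cd160 matches were in the window of an alternative start, 14830 bases from the gene's 5′ end in the authors' table. Its window at that end held no match. The Ctla4 window, with 1 NFAT core, lay 22025 bases from the 5′ end of its gene in that table. A match describes letters only, and its absence says nothing of a factor.

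The remaining inhibitory receptors moved in opposite directions. Pdcd1 (ENSMUSG00000026285, chromosome 1, 94038305 to 94052553) encodes PD-1, the receptor for PD-L1 and PD-L2. Its level was 202, 190 and 197 CPM in the control and 118, 118 and 115 CPM after PM2.5. Each exposed library was below each control library, and the log2 fold change was -0.75 (SE 0.03, adjusted p = 1.60e-08). Of all genes, 17.1% fell more. The 3 neighbours of Pdcd1 at 1 CPM or more were split, with a rise of Ing5, a chromatin reader (log2 fold change 1.12), and falls of D2hgdh, a mitochondrial dehydrogenase (-0.67), and Dtymk, a thymidylate kinase (-0.35).

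Lag3, whose product binds MHC class II molecules (ENSMUSG00000030124, chromosome 6, 124904361 to 124911705), had 60.0, 62.3 and 59.5 CPM in the control and 44.0, 44.7 and 40.6 CPM after PM2.5. All PM2.5 libraries lay below all controls, and the log2 fold change was -0.49 (SE 0.05, adjusted p = 9.49e-06). Its neighbour and structural relative Cd4, which binds the same class of molecules, fell from 388 ± 4.03 to 323 ± 4.44 CPM (-0.27, adjusted p = 8.35e-06). The region is rich in genes: of 28 others tested within 250 kb of the start of Lag3, 9 rose and 9 fell. Among all genes, 35.2% rose and 35.3% fell.

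Havcr2, the gene of TIM-3 (ENSMUSG00000020399, chromosome 11, 46454935 to 46481255), had the lowest level of the 10 in the control, with 30, 35 and 30 counts in the control libraries and 211, 232 and 209 counts in the PM2.5 libraries. In CPM these are 1.33, 1.76 and 1.31 against 7.93, 9.09 and 8.42. All exposed libraries were far above all controls, although the control values rest on few counts and varied by 17.6% of their mean. The log2 fold change was 2.54 (SE 0.14, adjusted p = 8.06e-08) and 1.04 with limma on log2(FPKM + 1), a scale that draws low values together. Macrophages and dendritic cells also express TIM-3. The 7 macrophage and monocyte markers summed to 4.83 to 6.19 CPM in the control and 3.01 to 3.57 CPM after PM2.5, with Lyz2 at 0 counts in every library. The 7 dendritic cell markers went from 0.928 to 1.26 CPM in the control to 2.62 to 3.58 CPM after PM2.5, of which Zbtb46 alone made 0.455 ± 0.136 and 2.68 ± 0.430 CPM, while Clec9a, Siglech and Cd209a had no counts. Itgax, the only other one of these markers tested, fell from 0.533 ± 0.067 to 0.234 ± 0.044 CPM (-1.17). The part of such cells in the rise of Havcr2 was not tested. Of the 5 tested neighbours of Havcr2 all rose, beside 35.2% of all genes. Among them were Med7, a Mediator subunit (0.62), Fam71b (2.13) and Timd2, a relative of TIM-3 (0.29, with adjusted p = 0.0796 in DESeq2 and 0.0561 without PBS control replicate 1).

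Tigit, an inhibitory receptor for CD155 (ENSMUSG00000071552, chromosome 16, 43648861 to 43664184), had 4.11, 4.08 and 3.31 CPM in the control and 7.03, 6.35 and 7.45 CPM after PM2.5. The groups did not overlap, and the log2 fold change was 0.86 (SE 0.12, adjusted p = 0.000124). Its activating competitor Cd226 rose more, from 2.47 ± 0.16 to 10.1 ± 0.67 CPM (2.04, SE 0.11, adjusted p = 5.47e-08). Its 2 neighbours at 1 CPM or more were split, with a rise of Qtrtd1, a subunit of a tRNA-modifying enzyme (1.26), and a fall of 2610015P09Rik (-0.36, a call lost with DESeq2 and without PM2.5 replicate 2). The ligand gene Pvr, which encodes CD155, rose from 25.6 ± 0.90 to 46.7 ± 2.26 CPM (0.87).

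**Figure D3:**
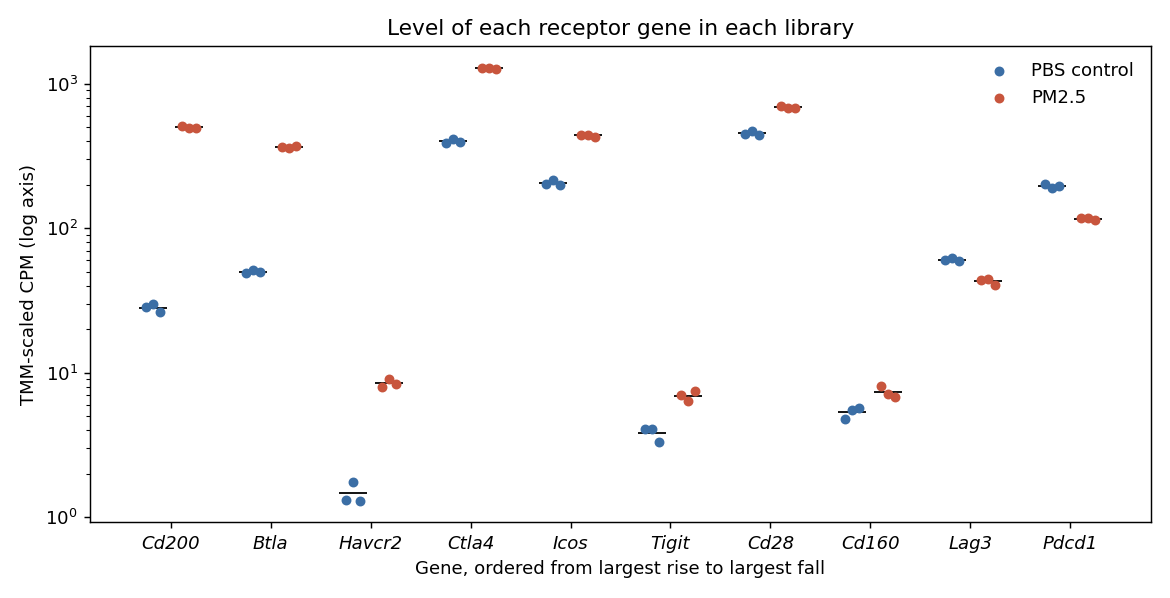
TMM-scaled CPM (log axis) of each receptor gene in each of the 3 PBS control libraries (blue) and 3 PM2.5 libraries (red); black lines are group means. The colours do not overlap for any gene, and the distance between them is widest for Cd200 (28.3 to 501 CPM on average).

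The set was also ordered by level per transcript length, using the FPKM values of the authors' table. In the control, Ctla4 was highest at 141 ± 4.13 FPKM, followed by Pdcd1 (104 ± 3.42), Cd28 (68.4 ± 2.24), Icos (59.8 ± 1.93), Lag3 (28.6 ± 0.57), Btla (8.41 ± 0.22), Cd200 (4.33 ± 0.24), Tigit (4.07 ± 0.47), Cd160 (1.76 ± 0.16) and Havcr2 (0.302 ± 0.052; SD, n = 3 throughout). Each gene was above the next in all libraries, except that the ranges of Cd200 and Tigit overlapped. After PM2.5 the order was Ctla4 (434 ± 4.45 FPKM), Icos (122 ± 2.45), Cd28 (98.9 ± 2.13), Cd200 (73.5 ± 1.31), Pdcd1 (59.1 ± 0.86), Btla (59.0 ± 0.96), Lag3 (19.5 ± 0.98), Tigit (7.05 ± 0.57), Cd160 (2.31 ± 0.21) and Havcr2 (1.67 ± 0.11). Here only the ranges of Pdcd1 and Btla overlapped.

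Order depends on the length assigned to a gene. The lengths implied by the authors' FPKM were 2.01 times the GENCODE M21 exonic length for Cd200, 1.82 times for Havcr2 and 1.79 times for Btla, against 1 to 1.24 times for the other members. Per kilobase of GENCODE exons, a choice added after the data were seen, Cd200 was second after PM2.5 (148 ± 2.62 counts per kilobase, scaled as CPM) and Btla (106 ± 1.72) was above Pdcd1. Havcr2 and Cd160 then had overlapping ranges at the bottom. The order in the control was the same by either length.

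The summed FPKM of the 10 genes went from 421 ± 6.32 to 877 ± 9.22. Ctla4 made up 33.5% ± 0.54 of that sum in the control and 49.5% ± 0.25 after PM2.5, and Cd200 1.03% ± 0.04 and 8.38% ± 0.09. Pdcd1 went the other way, from 24.7% ± 1.14 to 6.74% ± 0.03. Icos held nearly the same share (14.2% ± 0.24 and 13.9% ± 0.15), with its lowest control library and its highest PM2.5 library both at 14.1%. The share of Cd28 was 16.3% ± 0.29 and 11.3% ± 0.20, lower after PM2.5 although its own level was higher. The sum and all these shares, that of Icos included, depend on the lengths behind the authors' FPKM. Per kilobase of GENCODE exons, Cd200 stood above Icos after PM2.5 (148 ± 2.62 against 125 ± 2.51). Shares by those lengths were not computed.

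**Figure D4:**
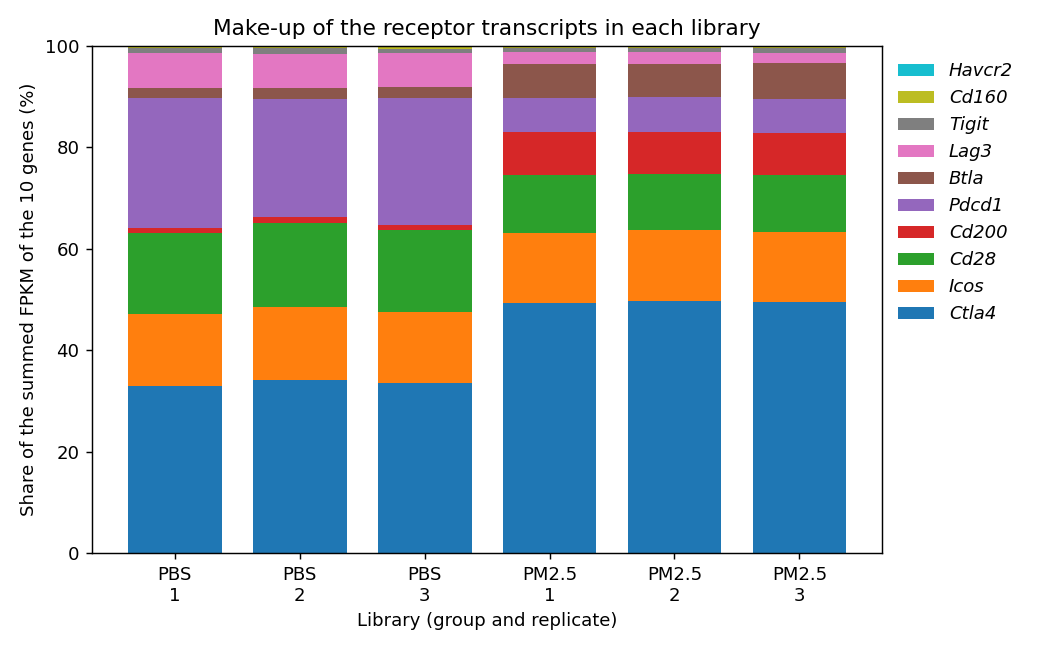
Share of each receptor gene (percent, vertical axis) in the summed FPKM of the 10 genes, one bar per library with replicate number. In the PM2.5 bars Ctla4 takes 49.5% of the sum on average against 33.5% in the PBS control, and Pdcd1 6.74% against 24.7%.

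Ratios within each library were compared for 6 pairs of genes that share a ligand, a locus or a role. The ratio of Ctla4 to Cd28, which share their ligands, was 2.06 ± 0.02 in the control and 4.39 ± 0.10 after PM2.5 (FPKM ratio, SD, n = 3), a 2.13-fold rise. Icos to Cd28 went from 0.874 ± 0.003 to 1.23 ± 0.03, and Btla to Cd160, which share HVEM, from 4.80 ± 0.38 to 25.7 ± 2.45. Pdcd1 to Ctla4 went down from 0.738 ± 0.045 to 0.136 ± 0.001, a 5.41-fold difference. Tigit to Cd226 was 4.34 ± 0.32 and 1.93 ± 0.27, and Lag3 to Cd4 0.358 ± 0.010 and 0.307 ± 0.019. No pair had overlapping ranges. Among single genes tested, 74.9% had none either, and the share among other pairs of genes was not computed. In the exact two-sided permutation test each pair gave p = 0.10, also 0.10 after adjustment over the 6 pairs, and 0.10 is the smallest p that 3 against 3 libraries allow, so none could pass 0.05.

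Ligands of these receptors were split in direction. Of 14 ligands and counter-receptors in the list, 12 were tested: 5 were higher, 5 lower and 2 not called, and the median log2 fold change was 0.25. Over all genes the shares were 35.2% higher and 35.3% lower. Icosl, the ICOS ligand, was too low to test (0.604 and 0.132 CPM) and Fgl1, a LAG-3 ligand of the liver, had no counts. Of the ligands shared by CD28 and CTLA-4, Cd86 fell from 40.4 ± 0.80 to 13.5 ± 1.29 CPM (-1.58, SE 0.07, adjusted p = 1.94e-08), whereas Cd80, named here after its values were seen, rose from 13.8 ± 0.71 to 24.0 ± 1.09 CPM (0.79). Lgals9, the gene of the TIM-3 ligand galectin-9, fell from 64.4 ± 2.65 to 32.8 ± 0.998 CPM (-0.97). Of the PD-1 ligands, Pdcd1lg2 fell by 0.44 on the log2 scale (adjusted p = 0.0172), a call lost with DESeq2 (0.0529), without PBS control replicate 2 (0.0683) and without PM2.5 replicate 3 (0.0643). Cd274, also named after its values were seen, rose by 0.56.

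Other co-signalling receptors of the immunoglobulin type numbered 17 in the table of 18 listed, and 16 were tested. Rises and falls were equal in number (7 each), beside 35.2% higher and 35.3% lower among all genes. A further 2 genes were not called, and the median was -0.14. Cd101, an inhibitory surface glycoprotein, fell from 297 ± 8.61 to 23.5 ± 1.80 CPM (-3.66, SE 0.06, adjusted p = 8.87e-12), a larger change than the fall of any of the 10 members. The adhesion receptor Cd2 fell from 378 ± 10.4 to 106 ± 1.82 CPM (-1.83). Slamf1, a self-binding receptor of activated lymphocytes, rose from 28.4 ± 1.13 to 92.0 ± 2.20 CPM (1.70), and Crtam, found on activated T cells, from 4.58 ± 0.19 to 19.1 ± 1.52 CPM (2.06). The small rises of Cd5 (0.10) and Cd84 (0.18) lost their calls in 4 and 10 of the 14 alternatives, among them scaling by library totals (adjusted p = 0.277 and 0.168).

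Of 23 genes that act below the receptors, 12 were lower, 7 higher and 4 not called, beside 35.3% lower and 35.2% higher among all genes, and the median was -0.14. Pik3r1, the regulatory subunit of the PI3-kinase that CD28 and ICOS recruit, fell from 336 ± 6.87 to 87.2 ± 1.37 CPM (-1.95, SE 0.03, adjusted p = 1.21e-11). Malt1, the protease of the complex that links CD28 to NF-kB, fell from 1115 ± 33.6 to 320 ± 7.59 CPM (-1.80), and the exchange factor Vav1 from 302 ± 10.1 to 153 ± 0.41 CPM (-0.98). The small changes of Tbk1 (-0.14), Bag6 (0.09) and Ppp2ca (0.15) lost their calls in 8, 6 and 2 of the 14 alternatives.

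Of the 11 genes of receptor transport, shedding and mRNA decay, 6 were higher, 2 lower and 3 not called (median 0.37). Among all genes, 35.2% were higher and 35.3% lower. Trat1, an adaptor that helps to bring CTLA-4 to the surface, was nearly absent in the control (0.155 ± 0.060 CPM) and present after PM2.5 (5.40 ± 0.15 CPM; adjusted p = 1.42e-08). The related adaptor Lax1 fell from 95.8 ± 1.43 to 21.6 ± 0.12 CPM (-2.15). Rc3h1, which encodes the RNA-binding protein roquin that destabilises Icos mRNA, rose by 0.67 while Icos rose, and Adam17, a protease that sheds LAG-3, rose by 0.62.

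Transcription factors linked to inhibitory receptors were lower in 10 of 18 cases, higher in 6 and not called in 2 (median -0.38), beside the same 35.3% and 35.2% over all genes. Maf fell from 821 ± 12.6 to 266 ± 2.93 CPM (-1.63, SE 0.03, adjusted p = 1.27e-11), Tcf7 from 678 ± 17.4 to 299 ± 3.51 CPM (-1.18) and the activation-induced receptor Nr4a1 from 221 ± 9.23 to 99.4 ± 1.78 CPM (-1.15). Its relatives Nr4a2 and Nr4a3, named after their values were seen, went the other way. Nr4a2 rose from 20.1 ± 1.04 to 41.7 ± 5.12 CPM (1.05) and Nr4a3 from 32.8 ± 0.93 to 131 ± 45.6 CPM (2.00). Irf4, induced by antigen receptor signals, rose from 1172 ± 20.6 to 2907 ± 23.8 CPM (1.31). Prdm1, the gene of Blimp-1, was low and fell by 0.46, a call lost with DESeq2 (adjusted p = 0.113). Ikzf2 rose by 1.15, with calls lost without PBS control replicate 3, without any single PM2.5 library and with no filter on low counts (adjusted p = 0.0594 to 0.0903).

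**Figure D5:**
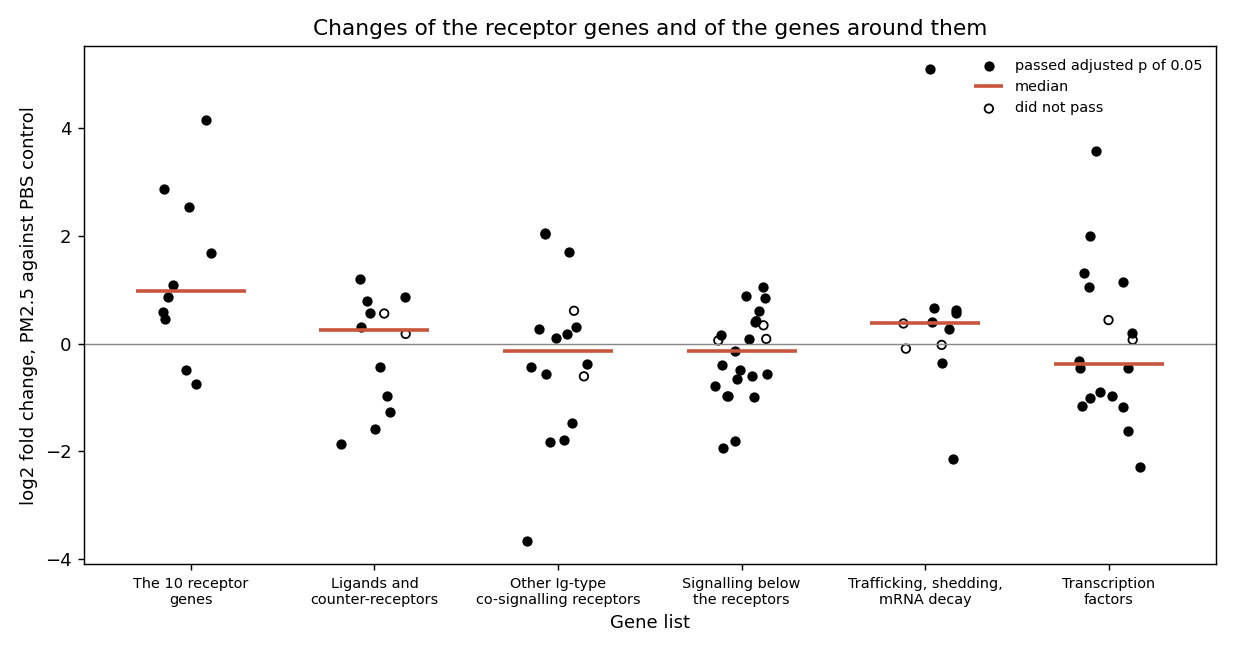
log2 fold change of each tested gene, PM2.5 against PBS control, for the 10 receptor genes and 5 lists of genes around them; filled points passed an adjusted p of 0.05, open points did not, and red lines are medians. The median of the receptor genes is 0.97, and those of the lists lie between -0.38 and 0.37. Members and lists were chosen with earlier results of these data known.

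Genes with the profile most like that of 2 members were sought by Euclidean distance of centred log2 CPM over the 6 libraries. Nearest to Cd200, the member with the largest rise, were the stress factor Ddit3 (distance 0.31), Idi2, Slamf7, Fbln5 and the cytokine gene Csf2 (0.45). Fbln5 had no counts in the control and 1.42 ± 0.33 CPM after PM2.5. Its log2 fold change in edgeR's fit was 8.09, beside 4.15 for Cd200. The log2 CPM behind the distances used a prior count of 2, which draws low values together. Nearest to Pdcd1, the member with the largest fall, were the kinase gene Csnk1g2 (0.04), the filament gene Vim, Arhgap9, Sash3 and the desaturase Scd2 (0.05). With 2 groups such distances follow mainly the size of the change between them on that scale.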

How the data were processed

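Per the file headers, the authors' deposited table holds raw counts per Ensembl gene and FPKM for 6 libraries; the submitters' processing notes name TopHat2 2.0.6 and mm10. Not given in the sources used here are the counting program, the annotation and the strandedness, so counts of overlapping, antisense or near-identical genes can share reads. For 9540 genes with over 100 counts in each library, the deposited FPKM equal counts over library total and 1 length per gene to within 0.00086%.

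Counts were filtered with filterByExpr (minimum count 10, minimum total 15), scaled by TMM and tested over all 6 libraries in edgeR 4.0.16 (R 4.3.3; glmQLFit, robust, two-sided quasi-likelihood F test), with Benjamini-Hochberg adjustment over 12967 genes. Each SE is the size of the log2 fold change divided by the root of its F value. The fit was run on 1 simulated set, with 50 genes changed at each of 4 sizes. It recovered 8% of changes of 1.2-fold, 86% of 1.5-fold, 98% of 2-fold and 98% of 4-fold, and 4.61% of its calls were false. Far fewer genes changed there than were called in the data, so it does not cover changes of such breadth. Alternatives used limma 3.58.1, DESeq2 1.42.0, other scalings, filters and pseudocounts (1 and 0.1 FPKM), a replicate block and the leaving out of each library.

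Named genes are the 10 members, the 4 genes of smallest adjusted p in each of 5 lists, list genes whose call an alternative ended, ratio partners, neighbours within 250 kb reaching 1 CPM, and the 5 genes of nearest profile to 2 members. Some genes that this rule names are not reported here. Members and lists were chosen with earlier results of these data known. Promoter sequences are from RefSeq.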

Additional observations from a re-analysis of the deposited data

How the results depend on the processing

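All 10 members kept their direction and their call under the 14 alternatives, except that Havcr2 had no value under the filter at a mean of 5 CPM, which left 7 members higher and 2 lower. Under the other 13 alternatives 8 members were higher and 2 lower. Over the alternatives the log2 fold change ranged from 3.81 to 4.19 for Cd200, 2.67 to 2.90 for Btla, 1.62 to 1.71 for Ctla4, 1.02 to 1.12 for Icos, 0.52 to 0.62 for Cd28, 0.67 to 0.92 for Tigit, 0.26 to 0.51 for Cd160 (largest adjusted p = 0.0223), -0.82 to -0.73 for Pdcd1 and -0.56 to -0.44 for Lag3. Havcr2 ranged from 2.46 to 2.68 in the count fits. Of all genes, 9149 were called in the edgeR test, 8369 with DESeq2, 9134 with library totals and 8777 to 8998 without any single library. Library totals moved the median of all genes by -0.06 on the log2 scale. With the replicate number as a replicate block 9002 genes were called, and no member's call changed. Deviations of same-numbered libraries correlated at 0.013, 0.0072 and 0.045, not every library correlated best with its own number, and the numbers are not taken as pairs. For the 92 other genes followed, 1224 of 1289 values kept their side of the threshold, 59 lost it, 6 gained it and 0 turned direction. The cause of the lost calls was not tested. The low counts of Havcr2, Tigit and Cd160 limit their precision.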
